A study of Mus musculus with 22 samples.

Results

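The skeletal myogenic regulators described here are 9 of the 26202 gene symbols in a count table from embryonic mouse tracheas. They are the precursor genes Pax3, Pax7 and Myf5, the commitment genes Myod1, Myog and Myf6, and the fusion and adhesion genes Mymk, Mymx and Cdh15. The genes were chosen by their counts in the comparison of Wnt5a mutant with control tracheas, so values and fold changes from that comparison are a description of them, and no p is given. Whole tracheas were sequenced at E11.5. The controls were Wnt5a f/f (5 libraries) and the mutants Dermo1Cre; Wnt5a f/f (4 libraries), so every E11.5 library carried the floxed allele. Only the mutants carried Dermo1Cre, a recombinase active in the mesenchyme, and loss of Wnt5a and presence of Cre cannot be told apart. At E13.5, cells of γSMAeGFP tracheas were sorted with an Epcam antibody and the smooth muscle reporter into epithelium, muscle and double negative chondroblasts, with 2 control libraries each. Chondroblasts of Notum 150/150; γSMAeGFP embryos gave 3 more libraries. The sorted controls were Bmp4 f/f; γSMAeGFP or Notum 300/300; γSMAeGFP, and which of these a library holds could not be read from its column name. Each library pooled 5 tracheas. At E13.5 the tracheas of a pool came from 1 litter. The study states for its animal experiments in general that several litters were used for each genotype. Which litter an E11.5 pool came from is not given in the sources used here, so p-values there measure the spread between these libraries.

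In the embryo, Pax3 and Pax7 are transcription factors of muscle precursors, and Myf5 is the earliest of the myogenic basic helix-loop-helix factors. Myod1 commits cells to the skeletal muscle fate, Myog drives the differentiation of committed myoblasts, and Myf6 acts in later differentiation. Commitment genes is used here only as a name for Myod1, Myog and Myf6 together. Mymk and Mymx encode the membrane proteins that fuse myoblasts into fibres, and Cdh15 encodes M-cadherin, an adhesion protein of myogenic cells. The wall of the trachea builds smooth muscle, which forms without these factors. In bulk RNA, a change in the number of cells of a type and a change in RNA per cell cannot be told apart.

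Total counts ran from 6880660 to 21678177 per library, with control E the shallowest, so that 3 counts correspond to 0.436 CPM (counts scaled to a common library size) there and to 0.138 CPM in the deepest. Levels below are CPM scaled by TMM over the 18 libraries. The targeted gene did not separate the labelled groups. Wnt5a was at 57.7 to 162 CPM in controls and 46.5 to 127 CPM in mutants (log2 fold change -0.20 ± 0.30, standard error, SE), with an adjusted p of 1 by edgeR's quasi-likelihood test. Counts summed over a symbol cannot resolve a deleted exon, so this level does not check the labels. Twist2, the gene formerly called Dermo1, after which the Cre is named, was at 6.36 to 45.5 CPM in controls and 6.16 to 23.8 CPM in mutants.

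The promoters of Myog and Cdh15 are shown because the factors encoded by Myod1, Myog, Myf5 and Myf6 bind the E-box CANNTG, and because both genes were measured at higher levels in the mutants. Shown are the 250 bases before the RefSeq start on assembly GRCm38.p6, at chr1:134289754-134290003 for Myog and chr8:122848124-122848373 for Cdh15, on the plus strand. Capitals mark CANNTG, which reads alike on both strands, and the core CTANNNNTA, bound by MEF2 factors, on either strand.
Myog: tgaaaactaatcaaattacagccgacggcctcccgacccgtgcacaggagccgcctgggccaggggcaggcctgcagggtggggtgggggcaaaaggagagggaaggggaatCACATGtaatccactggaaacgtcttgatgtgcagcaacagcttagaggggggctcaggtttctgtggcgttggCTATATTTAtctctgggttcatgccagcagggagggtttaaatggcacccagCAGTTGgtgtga
Cdh15: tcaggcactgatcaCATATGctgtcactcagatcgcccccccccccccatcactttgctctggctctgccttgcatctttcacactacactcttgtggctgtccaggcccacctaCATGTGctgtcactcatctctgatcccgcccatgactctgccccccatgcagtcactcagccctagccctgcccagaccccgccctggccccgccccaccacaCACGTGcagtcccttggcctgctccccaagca
The Myog window held 2 E-boxes, whose first bases lie 138 and 12 bases before the start, and between them 1 MEF2-type core, 64 bases before the start. The Cdh15 window held 3 E-boxes at 236, 135 and 32 bases before the start, and 0 MEF2-type cores. None of these matches overlapped another, and none of the E-boxes had the inner letters GC, the form CAGCTG. Of 32817 promoter windows of the same length, 66.2% held at least 1 CANNTG, 12.2% at least 3, 13% CAGCTG and 19% the MEF2-type core. The RefSeq windows of Myf5 (chr10:107486135-107486384) and Pax7 (chr4:139832969-139833218), both on the minus strand, lie inside the gene spans given below, not before them. They held 0 E-boxes each. The MEF2-type core was present 0 times in the Pax7 window and 2 times in the Myf5 window, where the matches, read from both strands, overlap each other. The promoters of Pax3, Myod1, Myf6, Mymk and Mymx are named only. These matches are letters in a window and say nothing of binding.

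On the same assembly Myog lies at chr1:134290004-134292548, Cdh15 at chr8:122848374-122867397 and Myod1 at chr7:46376474-46379092. Pax3 lies at chr1:78101267-78197136, Pax7 at chr4:139737059-139833530, Mymk at chr2:27061636-27072161 and Mymx at chr17:45600961-45602196. Myf5 at chr10:107482908-107486927 and Myf6 at chr10:107492848-107494723 are neighbours, with 5920 bases between them. All counts are of polyadenylated RNA, summed per gene symbol over the deposited entries.

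The first comparison asked which genes differ between Wnt5a mutant and control tracheas at E11.5, before the tracheal cartilage condenses. The commitment genes Myod1 and Myog and the fusion and adhesion genes Mymk, Mymx and Cdh15 were measured at higher levels in each of the 4 mutant libraries than in any of the 5 controls, by 2.68-fold (Cdh15) to 5.35-fold (Myog). The precursor genes Pax3, Pax7 and Myf5 and the late factor Myf6 stayed low, and their groups overlapped. Of the 9 genes, 7 passed the filter on low counts, and Pax7 and Myf6 did not.

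Myog, which drives the differentiation of committed myoblasts, was the most abundant of the 9 genes. It was at 13.7, 20.2, 13.3, 12.8 and 6.65 CPM in the 5 controls (A to E) and at 84.1, 60.8, 85.3 and 62.4 CPM in the 4 mutants (A to D). The lowest mutant library, B, stood at 3.00 times the highest control, also B. The means were 13.4 ± 4.82 CPM (SD, n = 5) and 73.2 ± 13.4 CPM (SD, n = 4), a log2 fold change of 2.42 ± 0.25 (SE).

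Myod1, the factor able to convert other cell types to muscle, was at 4.08, 5.41, 4.95, 3.91 and 2.89 CPM in controls A to E. It was at 17.8, 16.4, 18.2 and 13.2 CPM in mutants A to D. The groups did not overlap, and the log2 fold change was 1.91 ± 0.22 (SE). Myf6 had 0 to 8 counts in each control library and 2 to 11 in each mutant. Its levels, at most 0.723 CPM in a control and 0.585 CPM in a mutant, overlapped.

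Among the fusion and adhesion genes, Cdh15 was at 5.51, 6.81, 6.16, 5.03 and 2.17 CPM across controls and at 18.1, 14.1, 11.4 and 13.1 CPM across mutants (log2 fold change 1.42 ± 0.29, SE). Mymk, the fusogen that acts first in myoblast fusion, was at 0.510, 1.86, 1.07, 0.963 and 1.74 CPM in controls and at 7.39, 5.89, 6.22 and 6.78 CPM in mutants (2.40 ± 0.39). Mymx, which completes fusion, was at 0.459, 0.524, 0.870, 1.02 and 0.289 CPM in controls and at 3.83, 1.71, 3.33 and 1.71 CPM in mutants (1.99 ± 0.45). Mymk and Mymx were thus near 1 CPM in controls and above it in every mutant library, without overlap, and their counts per control library were small.

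**Figure D1:**
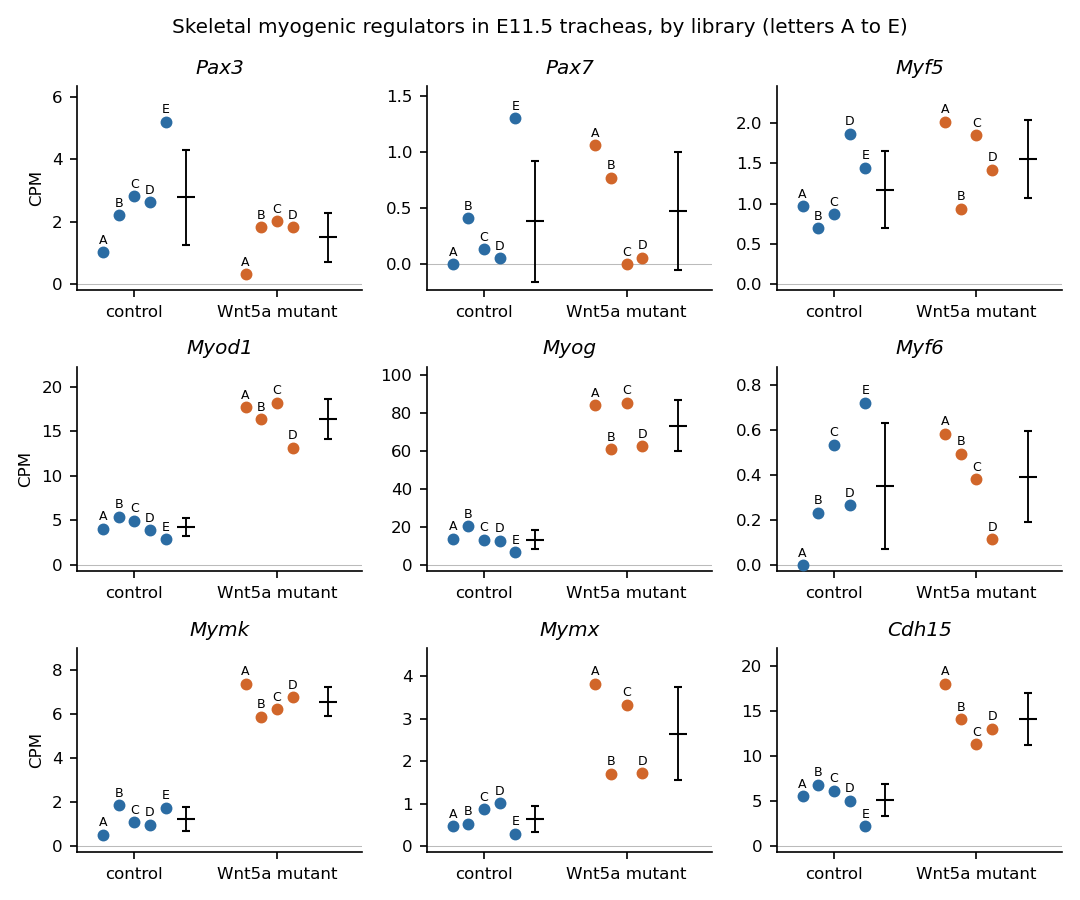
Level of each regulator in CPM (vertical axes, linear) in the 5 control and 4 Wnt5a mutant libraries at E11.5, with letters naming the libraries and bars giving the mean ± SD. Myod1, Myog, Mymk, Mymx and Cdh15 are above every control in every mutant, while Pax3, Pax7, Myf5 and Myf6 overlap, with means of at most 2.77 CPM.

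Of the precursor genes, Pax3 was at 1.02, 2.21, 2.81, 2.62 and 5.21 CPM in controls A to E. It was at 0.319, 1.82, 2.02 and 1.82 CPM in mutants A to D, where library A stood below every other E11.5 library (log2 fold change -0.92 ± 0.58, SE). Myf5 was at 0.970, 0.698, 0.870, 1.87 and 1.45 CPM in controls and at 2.02, 0.936, 1.86 and 1.42 CPM in mutants (0.39 ± 0.42). Pax7 had 0 to 9 counts in a control library and 0 to 20 in a mutant, and was at 0 in control A and in mutant C. The 3 precursor genes summed to 1.99 to 7.96 CPM in controls and 3.30 to 3.87 CPM in mutants, the mutants lying inside the range of the controls. With so few counts, a moderate difference in a precursor gene was not detectable at this depth.

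The sum of the other 6 genes was 14.5 to 35.1 CPM in controls and 97.2 to 132 CPM in mutants. Divided by the sum of the precursor genes in the same library, it was 12.2, 10.6, 7.05, 5.28 and 1.82 in controls A to E and 38.7, 28.2, 32.2 and 29.4 in mutants A to D. The ratios of the mutants lay in a narrow band above all controls, and control E, with the highest Pax3 and the lowest Myog, was the lowest. Within the commitment genes the ratio of Myog to Myod1 was 2.30 to 3.74 in controls and 3.72 to 4.74 in mutants, and the groups overlapped between 3.72 and 3.74. The ratio of Cdh15 to Myod1 was 0.750 to 1.35 in controls and 0.623 to 1.02 in mutants, which overlapped as well.

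**Figure D2:**
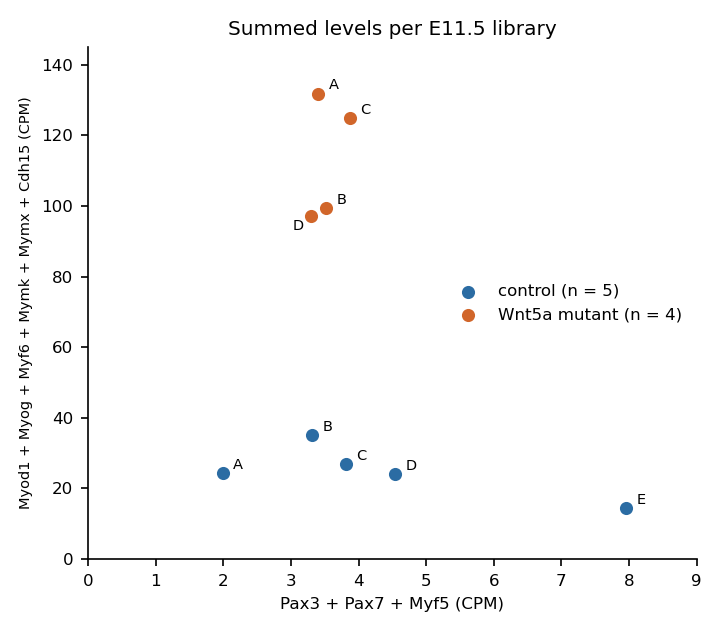
Summed CPM of Pax3, Pax7 and Myf5 (horizontal axis) against summed CPM of Myod1, Myog, Myf6, Mymk, Mymx and Cdh15 (vertical axis) in each E11.5 library. The 4 mutants stand between 97.2 and 132 CPM on the vertical axis and the controls between 14.5 and 35.1 CPM, while on the horizontal axis the mutants lie within the controls.

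Levels of different genes can be compared only per length. Per kilobase of exon, Myog was at 48.9 ± 8.94 CPM (SD, n = 4) in mutants, followed by Myod1 at 8.80 ± 1.23. Cdh15 at 4.35 ± 0.878 and Mymk at 4.35 ± 0.436 did not differ beyond their spread, and Mymx was at 2.57 ± 1.07. Myf5 at 0.748 ± 0.233, Myf6 at 0.312 ± 0.162, Pax3 at 0.242 ± 0.128 and Pax7 at 0.0807 ± 0.0899 were lowest, the last 3 with overlapping ranges. In controls Myog was at 8.93 ± 3.22 and Myod1 at 2.28 ± 0.526 CPM per kilobase (SD, n = 5), again the highest and the next.

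The study called genes at an unadjusted p under 0.05 and a fold change over 1.5. Of the 7 genes tested, 5 passed these thresholds as higher, against 1.19% of all 14663 genes tested, and 0 as lower, against 2.53%. At an adjusted p under 0.05, Myod1 and Myog were called, and these 2 were all the genes called among all tested, 0.0136%. Every mutant library was above every control for 5 of the 7, against 0.825% of all genes, and below for 0, against 0.436%. The genes were selected on this contrast, and Mymx and Myf5 passed the filter only through the mutants. These counts thus follow from the choice and nothing is read from them. The log2 fold changes lay between 2.28 and 2.61 for Myog and between 1.83 and 2.01 for Myod1 with 1 library left out.

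Column names give a number that 4 controls share with 4 mutants, and these pairs carry the same letter here. Within the pairs the mutant exceeded the control 4.35, 3.02, 3.68 and 3.37 times for Myod1 and 6.13, 3.00, 6.40 and 4.86 times for Myog (pairs A to D). For Mymk the ratios were 14.5, 3.16, 5.81 and 7.04, for Mymx 8.33, 3.26, 3.83 and 1.68, and for Cdh15 3.28, 2.07, 1.84 and 2.60. Every mutant library was above every control for these 5 genes, so any pairing would show a higher mutant. Pair B had the smallest ratio for Myod1, Myog and Mymk.

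A list of 47 other genes of the pathway was examined in the same comparison, of which 45 were tested. At the study's thresholds 12 were higher in mutants, beside 1.19% of all genes tested, and 2 lower, beside 2.53%. At an unadjusted p under 0.05 by edgeR, 14 passed, beside 672 of all 14663 genes tested. By adjusted p, edgeR called 0 of the 45, beside 2 of all genes. DESeq2 called 5, namely Chrng, Myh3, Neb, Rapsn and Tnnt1, beside 40 of all genes. Every mutant library was above every control for 6 of the 45, beside 0.825% of all genes, and below for 1, beside 0.436%. Chrng and Musk, among the 12 and the 6, passed the filter only through the mutants. Bhlhe41, among the 2 lower and the 1 below, passed it only through the controls. The DESeq2 call of Chrng and the counts that include these genes are thus no support for a difference. The median log2 fold change of the 45 was 0.16, beside -0.02 for all genes tested. Of the 12 higher genes, 9 belonged to the neuromuscular synapse and the contractile apparatus, Chrng and Musk among them.

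Of 7 genes of the postsynaptic side of the neuromuscular junction, 6 were tested and 4 passed the study's thresholds, all higher. Chrng, the fetal subunit of the muscle acetylcholine receptor, was at 0.0582 to 1.12 CPM in controls and 1.82 to 4.62 CPM in mutants (log2 fold change 2.53 ± 0.60, SE). Rapsn, which clusters the receptor, was at 0.919 to 2.39 and 4.02 to 6.54 CPM (1.66 ± 0.35). Musk, the receptor kinase of the synapse, was at 0.289 to 1.11 and 1.20 to 2.64 CPM (1.54 ± 0.48), and Chrnb1 at 2.96 to 5.24 and 5.78 to 8.38 CPM (0.79 ± 0.27). Chrng and Musk passed the filter only through the mutants. None of these 4 overlapped between groups, and their lowest adjusted p was 0.424 (edgeR). Chrna1, the most abundant of the list, went the other way (-0.63 ± 0.37), at 22.1 to 84.0 CPM in controls and 26.2 to 36.6 CPM in mutants. Dok7 was higher (0.82 ± 0.43), and neither Chrna1 nor Dok7 passed the study's thresholds. Dok7, too, passed the filter only through the mutants. Chrnd did not pass the filter.

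Of 8 contractile genes, all tested, 5 passed the study's thresholds as higher. Neb, the thin filament ruler nebulin, was at 3.57 to 5.50 CPM in controls and 11.9 to 22.9 CPM in mutants (1.94 ± 0.27, adjusted p = 0.0612 by edgeR). Tnnt1, slow skeletal troponin T, was at 8.01 to 15.3 and 24.3 to 34.2 CPM (1.24 ± 0.22). The groups of these 2 genes did not overlap. Myh3, embryonic myosin, was at 0.868 to 9.25 CPM in controls and at 25.1, 25.9, 4.04 and 22.9 CPM in mutants A to D (2.36 ± 0.64), with mutant C among the controls. Actc1 (1.18 ± 0.51) and Unc45b (0.62 ± 0.26), which the heart uses too, overlapped between groups. Klhl41 (-0.89 ± 0.70) and Ttn (-0.30 ± 0.65) were lower in mutants and Myl1 (1.23 ± 0.81) higher, none of them past the study's thresholds. In control E, Actc1 was at 153 CPM, Ttn at 76.2 CPM and the atrial gene Nppa at 80.6 CPM, the highest controls. The 6 heart genes listed summed to 33.9 to 296 CPM in controls and 25.3 to 151 CPM in mutants, and their part in the contractile values was not tested.

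**Figure D3:**
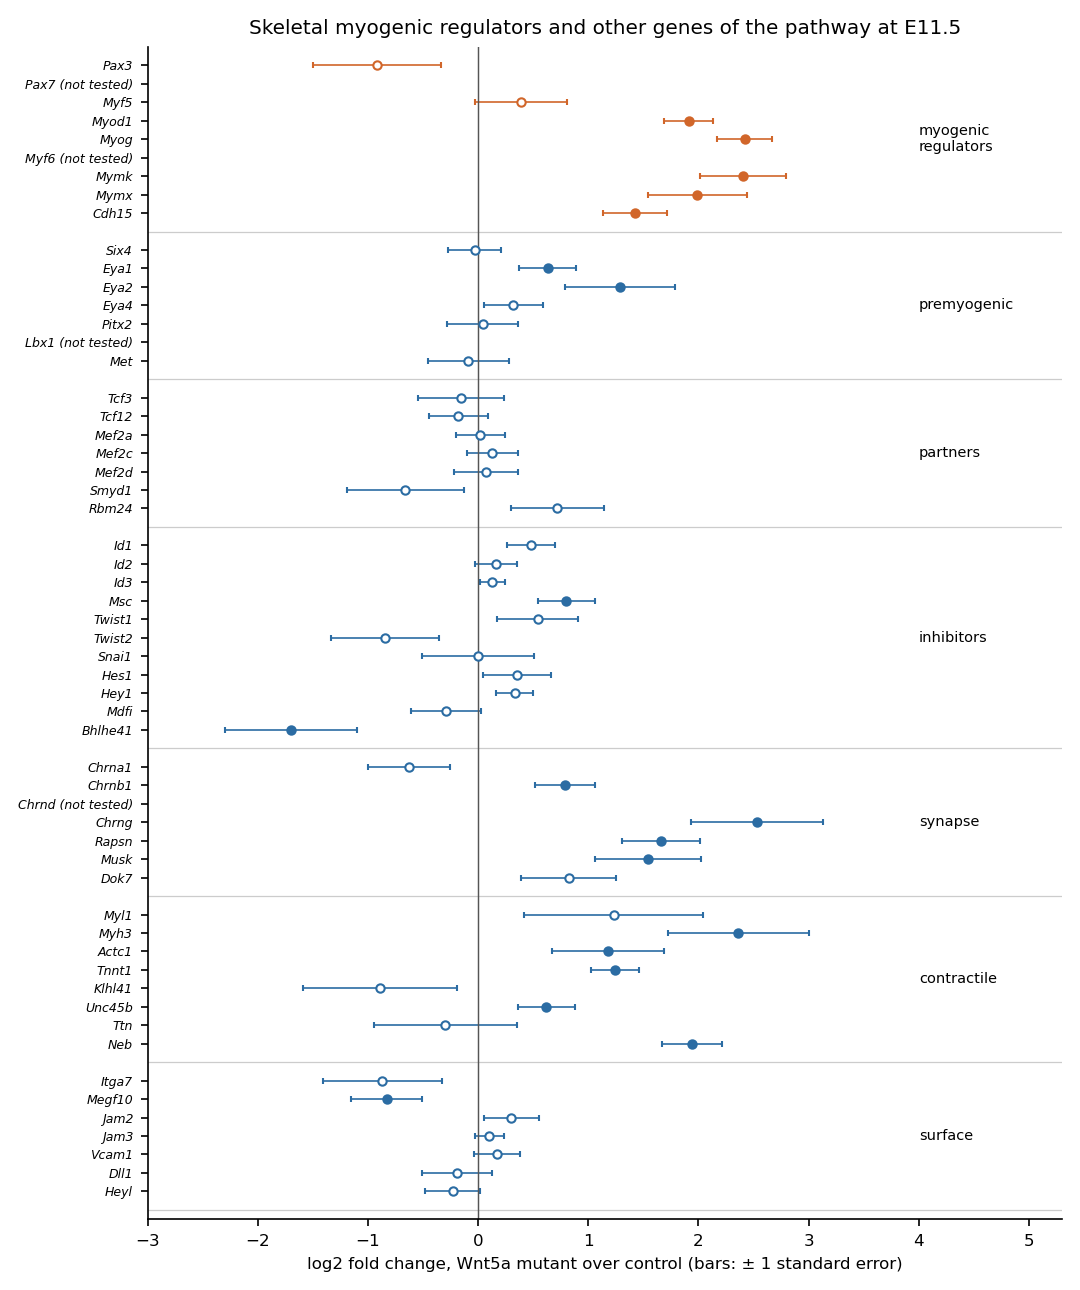
Log2 fold change of Wnt5a mutant over control at E11.5 (horizontal axis) with ± 1 SE for the regulators (orange) and the 47 other genes of the pathway (blue), by list, with filled points for genes past the study's thresholds. Filled points on the right cluster in the synapse list (4 of 6 tested) and the contractile list (5 of 8), and the partner list has none. Of the filled points, Chrng and Musk passed the filter on low counts only through the mutants, and Bhlhe41 only through the controls.

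Of 7 genes that act before the myogenic factors in head and limb muscle, 6 were tested and 2 were higher at the study's thresholds. Both, Eya2 (1.29 ± 0.50) and Eya1 (0.63 ± 0.26), encode transcriptional cofactors and overlapped between groups. Lbx1, the marker of migrating limb and tongue precursors, had at most 0.268 CPM in any E11.5 library and was not tested.

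Of 7 partners of the myogenic factors, all tested, 0 passed the study's thresholds. The most changed were Rbm24, an RNA-binding protein of muscle (0.72 ± 0.42), and Smyd1, a muscle methyltransferase (-0.66 ± 0.53). The E proteins Tcf3 and Tcf12, which dimerize with the myogenic factors, and Mef2a, Mef2c and Mef2d had log2 fold changes between -0.18 and 0.13. Of 11 inhibitors of the factors, Msc, a repressor expressed in pharyngeal muscle precursors, was higher (0.80 ± 0.26) and Bhlhe41 lower (-1.70 ± 0.60) at the study's thresholds. Bhlhe41 was at 1.28 to 8.53 CPM in controls and 0.873 to 1.17 CPM in mutants. It passed the filter on low counts only through the controls, so its call is no support for a difference. Of 7 surface genes, 1 was lower, Megf10 of satellite cells (-0.83 ± 0.32), and Itga7 did not pass (-0.87 ± 0.54). Itga7 was tested only through the controls, where it passed the filter.

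The genes whose levels were most like the mean of Myod1 and Myog over the 9 E11.5 libraries were Rab17, Hcfc1r1, Cdkn1a, Tnnt1, Mybph, Parp16, Sh3bgrl3, Frzb, Pam and Atp2a1, with Pearson's r of log2 CPM from 0.910 to 0.950. The points share the division into groups, and within the groups r was 0.21 to 0.52. Mybph, a myosin-binding protein, was at 0.510 to 3.08 CPM in controls and 10.4 to 15.6 CPM in mutants. Atp2a1, the calcium pump of fast muscle, was at 2.84 to 4.95 and 7.59 to 19.3 CPM. Cdkn1a, the cell cycle inhibitor induced in differentiating myoblasts, was at 4.07 to 6.53 and 13.2 to 20.0 CPM, and Frzb, a secreted Wnt antagonist, at 16.8 to 29.2 and 45.0 to 96.0 CPM. Of the regulators, Cdh15 had an r of 0.945 (0.85 within groups), Mymx 0.919 (0.59) and Mymk 0.891 (-0.07). The others were at 0.317 (-0.33) for Myf5, 0.106 (-0.20) for Myf6, -0.004 (-0.29) for Pax7 and -0.582 (-0.49) for Pax3.

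Markers of 14 other cell types of the region were summed per library. The mutants overlapped the controls for 13 lists and were all above them for 1, the thyroid list, at 12.5 to 17.3 CPM in controls and 18.4 to 52.1 CPM in mutants. Of its 5 genes, Hhex carried this difference, at 2.81 to 9.24 CPM in controls and at 21.7, 43.0, 28.9 and 8.89 CPM in mutants A to D. Tg went the other way, at 0.465 to 3.76 CPM in controls and 0.532 to 0.912 CPM in mutants. Hhex (log2 fold change 1.97 ± 0.44, SE) passed the study's thresholds as higher and Tg (-1.49 ± 0.59) as lower. Tg passed the filter on low counts only through the controls, so its call is no support for a difference. Tshr did not pass the study's thresholds (0.07 ± 0.39), and Foxe1 was at most at 0.319 CPM. Of 4 genes of the pharyngeal pouches, Pax9 was at 0.613 to 4.22 CPM in controls and at 8.56, 10.7, 12.5 and 0.171 CPM in mutants A to D. In mutant D, Pax9 was thus below every control and Hhex within the range of the controls. Their part in the result was not tested. Of all markers in the 14 lists, 2 of the neuronal list were at 0 in every mutant library.

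Markers of pharyngeal mesoderm, which gives rise to head and laryngeal muscle, summed to 199 to 299 CPM in controls and 242 to 310 CPM in mutants, but its members went different ways. Of the 4 tested, Msc was higher at the study's thresholds, as given above, Isl1 had a log2 fold change of 0.63 ± 0.34 and Tbx1 of 0.68 ± 0.55, and Tcf21, with -0.44 ± 0.16, lay below the fold threshold. Tbx1 was at most at 1.97 CPM in any E11.5 library and passed the filter only through the mutants. Their part in the result was not tested. Markers of somites, the source of trunk muscle, summed to 12.3 to 32.8 and 24.6 to 46.1 CPM, and Meox1 supplied the higher sums, at 32.0 and 25.8 CPM in mutants A and B. The 6 smooth muscle genes summed to 298 to 670 CPM in controls and 360 to 616 CPM in mutants, and none of the 6 passed the study's thresholds. Neuronal markers summed to 419 CPM in mutant C and to at most 146 CPM in any other E11.5 library.

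**Figure D4:**
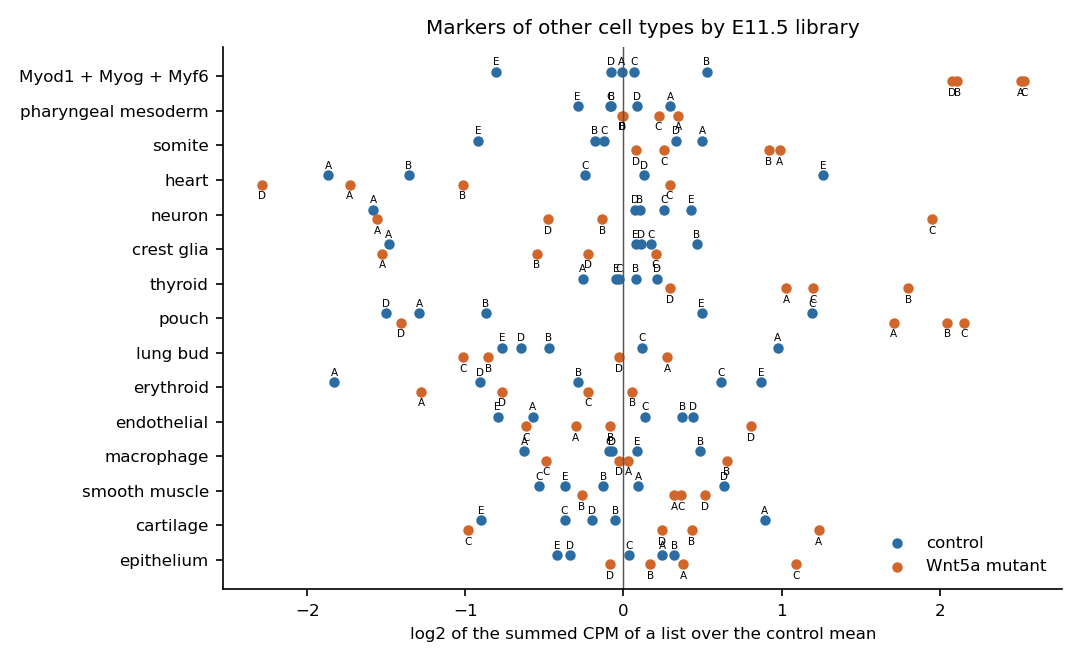
Summed CPM of marker lists in each E11.5 library as log2 over the control mean (horizontal axis), with library letters and the commitment genes in the top row. Only the thyroid list is higher in all 4 mutants, with mutant D just above the controls. Hhex carried this difference, and Tg of the same list had a lower mean in mutants, with overlap between groups. The commitment genes stand apart in all 4.

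The second comparison used the sorted E13.5 control populations, whose results were also known when the genes were listed. Column names carry 1 of 2 dates, an earlier (library A) and a later (library B), with 1 library of each population from each date. Myod1, Myog, Mymk, Mymx and Cdh15 were highest in the earlier library of the γSMAeGFP positive muscle population, and of these Myog and Mymx kept more than 5 CPM in its later library. Pax3, Pax7, Myf5 and Myf6 were low or absent there. In muscle A, Myog was at 452 CPM, Myod1 at 110, Cdh15 at 105, Mymk at 48.4 and Mymx at 20.6 CPM. In muscle B, Myog was at 33.5 CPM, Mymx at 6.25, Myod1 at 1.64 and Cdh15 at 0.757 CPM, and Mymk had 0 counts. Both muscle libraries held high smooth muscle markers, with sums of 13670 CPM (A) and 10570 CPM (B) for 6 genes, so they differed far more in the skeletal genes than in smooth muscle genes. The contractile genes of the pathway list summed to 2211 CPM in muscle A and 628 CPM in muscle B, and the repressor Msc was at 54.7 and 0.0631 CPM.

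Muscle A exceeded the mean of the E11.5 mutants 6.17 times for Myog, 6.74 times for Myod1, 7.37 times for Mymk and 7.42 times for Cdh15. The 4 genes thus stood in similar proportion in the sorted library and in the mutant tracheas. Muscle B did not share this proportion, with a ratio of Myog to Myod1 of 20.4 against 4.10 in muscle A. The precursor genes were low in both, with Myf5 at 2.25 CPM and Pax7 at 1.42 CPM in muscle A, 0 counts of either in muscle B, and 1 count of Pax3 in each. Myf6 had 0 counts in both.

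Chondroblasts held Myog at 6.44 CPM in library A and 0.224 CPM in B, and Myod1 at 1.33 and 0.0747 CPM. In epithelium, Myog was at 4.70 and 0.196 CPM and Myod1 at 0.335 CPM and 0. In each population the library of the earlier date held more of both genes. In library A, muscle exceeded chondroblasts 83.1 times for Myod1, 70.2 times for Myog and 28.7 times for Mymk. Pax7 was highest in epithelium B, at 4.05 CPM from 62 counts, and had 0 counts in epithelium A.

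With the dates pooled, Myod1, Myog, Mymx and Cdh15 passed the filter. Myod1, Myog and Mymx passed it only through muscle, the group where they were high, and Cdh15 through chondroblasts, so counts of calls among the 4 are no support for a difference. Over chondroblasts, the log2 fold changes of muscle were 6.17 ± 2.01 for Myog, 6.29 ± 2.36 for Myod1 and 6.60 ± 2.12 for Mymx (SE). Over epithelium they were 6.58 ± 2.05 for Myog, 8.23 ± 2.61 for Myod1, 10.84 ± 2.66 for Mymx and 7.66 ± 2.48 for Cdh15.

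At an adjusted p under 0.05, edgeR called 0 of the 4 in each of the 3 contrasts. It called 0.132% of all 13687 genes between muscle and chondroblasts, 3.58% between muscle and epithelium and 2.74% between epithelium and chondroblasts. At an unadjusted p under 0.05, 3, 4 and 0 of the 4 passed, beside 5.79%, 18.3% and 16.4% of all genes. By DESeq2 with adjustment, 1, 4 and 1 of the 4 passed, beside 1.86%, 13.3% and 11.4%.

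With the date as a block, which compares libraries within a date, the log2 fold change of Myog in muscle was 6.49 ± 0.40 over chondroblasts and 6.86 ± 0.41 over epithelium, with smaller errors than without the block. For Myod1 the values were 5.76 ± 0.99 and 8.06 ± 1.11. In this fit edgeR called Myog against chondroblasts, where 0.175% of all genes were called, and Myog and Myod1 against epithelium, where 2.91% were. Between epithelium and chondroblasts Cdh15 passed an unadjusted p under 0.05, as 15.8% of all genes did. In the values themselves, Myog was higher in muscle than in either other population on both dates, and the level in muscle differed between the dates by more than 10 times.

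**Figure D5:**
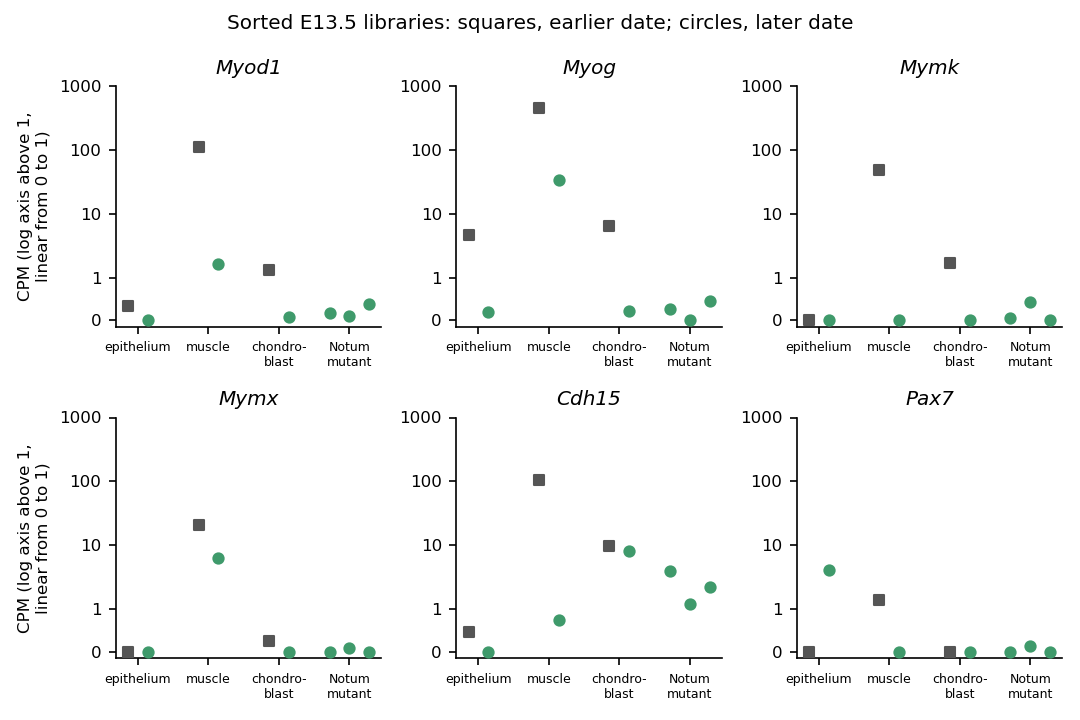
CPM of 6 regulators in the 9 sorted E13.5 libraries (vertical axes, logarithmic above 1 and linear from 0 to 1), with squares for the earlier and circles for the later date. Muscle of the earlier date is highest for Myod1, Myog, Mymk, Mymx and Cdh15, with Myog at 452 CPM, and Cdh15 alone is present in both chondroblast libraries at above 8 CPM.

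Cdh15 had a pattern of its own. It was at 9.71 and 8.07 CPM in the chondroblast libraries of both dates, where Myod1 was at 1.33 and 0.0747 CPM, so its level there did not follow the other genes. In muscle B it was below both chondroblast libraries, and the log2 fold change of muscle over chondroblasts turned from 2.59 ± 1.92 to -3.53 ± 2.68 without muscle A and to -0.22 ± 1.64 with the date as a block. In epithelium it had 10 counts in library A and 0 in B.

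The third comparison set Notum mutant against control chondroblasts at E13.5. All 3 mutant libraries were of the later date. Myod1 was at 0.186, 0.0982 and 0.395 CPM in mutants A to C and Myog at 0.278, 0 and 0.444 CPM, levels of at most 9 counts, near those of control B of the same date. Of the 9 genes only Cdh15 and Pax3 passed the filter. Cdh15 was at 3.99, 1.23 and 2.27 CPM in mutants against 9.71 and 8.07 CPM in controls (log2 fold change -1.82 ± 0.60, SE). It did not pass the adjustment (adjusted p = 0.331 by edgeR), and passed the study's thresholds, as 8.41% of all 14120 genes did in this comparison. At an adjusted p under 0.05 edgeR called 0% of all genes (12.5% at an unadjusted p under 0.05, and 3.73% by DESeq2 with adjustment). Of the 2 regulators tested it called 0, with 1 at an unadjusted p under 0.05 and 0 by DESeq2. With the date as a block, a fit added after the data were seen that sets the mutants against the 1 control of their date, the log2 fold change was -1.70 ± 0.63 (adjusted p = 0.102). Pax3 was at 1.16, 0.786 and 1.09 CPM in mutants and at 0.460 and 0.0747 CPM in controls, from 9 counts and 1 count. It passed the filter only through the mutants. Its log2 fold change was 1.86 ± 1.03 (SE), and it was 3.64 ± 1.21 with the date as a block and 3.64 ± 1.31 without control A. With that block both Cdh15 and Pax3 passed an unadjusted p under 0.05, as 35.7% of all genes did, and neither passed the adjustment.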

How the data were processed

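RNA of 18 libraries was analysed, made by the study with poly(A) selection and SMART-Seq v4 amplification. The authors deposited expected counts, which need not be whole numbers (56% of the values used were not), as 1 table of 47248 entries, without normalization and with replicates apart. The submitters' processing notes name mm10, Partek and limma, and the paper's methods name DESeq2. Aligner, counter and annotation are not given in the sources used here. Of 22 columns of values, 18 matched a group by name while 4 fitted no label and stayed unused. The labels list 3 samples for each sorted control population and 4 for the Notum mutants, where 2 and 3 columns were matched. Libraries are lettered within a group, by the number in the column name at E11.5 and by date in the sorted controls.

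Entries were summed per symbol, since 9286 of the 26202 symbols had several, and rounded. Strand was not stated. Genes with at least 1 CPM in over 50% of the libraries of a group were tested, with TMM factors, by edgeR 4.0.16 (quasi-likelihood, 2-sided, Benjamini-Hochberg) in R 4.3.3. The E11.5 groups, the 3 sorted control populations and the chondroblasts were fitted apart. SE is the size of a log2 fold change over the square root of F. The floor of 3 counts covers counting error only, since there were no molecular identifiers. No pair of libraries in a group agreed within sampling noise (chi-square per gene of at least 18.8). The steps were tested on simulated data. Alternatives were DESeq2 1.42.0, its size factors, library size, other filters, all 18 libraries in 1 fit, the entry with the most counts, libraries left out and blocks. Pairing at E11.5 comes from the column names, not the labels: deviations of same-numbered libraries from their group means correlated at 0.528, 0.192, 0.138 and 0.101 across genes. Those of a control and a mutant with different numbers correlated at -0.322 (control A, mutant C) to 0.219 (control E, mutant C).

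The regulators, the lists and the tests were chosen with earlier results of these data known. The genes named are the 9 regulators, the pathway genes past the study's thresholds or, where fewer than 2, the most changed 2 of a list, and the 10 genes most like Myod1 and Myog by Pearson's r of log2 CPM with a prior count of 2. Of the pathway lists, 1 gene is not reported here and entered no list count. Promoters are RefSeq's on GRCm38.p6, found for 4 of the 9 genes, and exon lengths are GENCODE unions on the same build.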

Additional observations from a re-analysis of the deposited data

Results flagged for a closer look

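In groups of 4 and 5 libraries at E11.5, 66 sets of values were searched for a library far from the rest, and 3 were found, where chance gives about 1 in 20. Pax3 in mutant A, at 0.319 CPM, lay below the other mutants, of which the lowest was at 1.82 CPM. The sum of Mymk, Mymx and Cdh15 in mutant A, at 29.3 CPM, lay above the other mutants, of which the highest was at 21.7 CPM. The neuronal markers in mutant C summed to 419 CPM, where the next mutant was at 98.8 CPM. The commitment genes of these 2 libraries, at 103 and 104 CPM, were the highest of the mutants.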

How the results depend on the processing

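Each log2 fold change of the 7 regulators tested at E11.5 moved by less than its SE under every alternative run that gave it a value. The number of genes with an adjusted p under 0.05 there was 2, and it was 40 by DESeq2, 9 without a filter, 5 with library size alone or with at least 10 counts in at least 4 libraries, 0 with all 18 libraries in 1 fit, 1 (Myog) with the replicate block of column numbers, and 0 to 3 with 1 library left out. Of the regulators, 5 were called by DESeq2. At the study's thresholds the 175 genes higher became 78 in the fit of 18 libraries (3 of the regulators in place of 5) and 144 to 263 with 1 library left out (263 without mutant C). The 371 lower became 1210 without a filter, 221 in the fit of 18, 191 with the replicate block, and 109 to 721 with 1 library left out, the ends being those without control E and without control A. Taking the entry with the most counts removed Mymx from the test.

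For muscle against chondroblasts, muscle against epithelium and epithelium against chondroblasts, the 18, 490 and 375 calls became 254, 1827 and 1554 by DESeq2 and 305, 1620 and 1463 without a filter. They ran from 2 to 22, 162 to 1197 and 20 to 1046 with 1 library left out (the highest of the last 2 without epithelium A, the lowest without muscle A and chondroblast B), where the lone library of a group is assumed to vary like the others. The Notum comparison went from 0 calls (1762 at an unadjusted p under 0.05) to 526 by DESeq2, 42 without a filter, 0 to 2540 with 1 library left out (2540 without chondroblast A, 106 without chondroblast B) and 2604 with the date as a replicate block, a fit added after seeing the data. Signs turned for Cdh15 in muscle against chondroblasts, to -3.53 without muscle A (-3.53 to 3.59 with 1 library left out) and -0.22 with the replicate block of dates. In epithelium against chondroblasts, Myog turned to 0.50 without epithelium B and 3.48 without chondroblast A (-4.08 to 3.48 in all), and Myod1 to 1.21 without chondroblast A (-6.57 to 1.21). The cause was not tested. With the replicate block of dates, 1 regulator (Cdh15, epithelium against chondroblasts) and Pax3 in the Notum comparison gained an unadjusted p under 0.05, and Pax3 moved from 1.86 to 3.64 there, as it did without chondroblast A. No adjusted call of a regulator changed with that block other than those given above. With 2 libraries per sorted group from different dates and few counts for Pax7, Myf6 and Myf5, differences in these genes were not detectable at this depth.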

Other observations

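The table lists 3 entries for Mymx and 2 for Mymk, and the split of their estimated counts between entries differed between libraries. In muscle A the 3 Mymx entries held 209, 90.5 and 48.6 estimated counts, and in muscle B 3.57, 95.4 and 0. Of the Mymk entries, the first had at most 29.5 estimated counts in any library, and the second had 817 in muscle A. Which transcripts the entries stand for was not tested.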
